A study of Homo sapiens with 6 samples.

Results

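ATAC-seq, which counts the cuts that Tn5 transposase makes in open chromatin, was used to compare A375 cells that overexpress the DNA-bending protein HMGB2 with cells that carry an empty vector, and the accessible sites of EphB receptor and ephrin-B ligand genes are described here. The 8 genes are EPHB1, EPHB2, EPHB3, EPHB4, EPHB6, EFNB1, EFNB2 and EFNB3. A peak was a member when its centre lay in the GENCODE release 44 body of a member gene, or when it was intergenic and the nearest start site of a protein-coding gene belonged to a member. By this rule 121 of the 152800 peaks in the table were members, and all 121 passed the filter on low counts. The family was chosen by the counts of EPHB6, which held many peaks called higher in HMGB2OE cells, so the values of EPHB6 are given as a description, with no test.

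A375, an established cell line, was grown from a human melanoma. The 3 EV libraries came from cells with the empty vector and the 3 HMGB2OE libraries from cells stably transduced to overexpress HMGB2, and both derive from the same parental line, with no other treatment named in the labels. The study describes the 3 libraries of a condition as technical replicates of an experiment that was not repeated, so all p-values here measure the spread between such libraries. The condition and the derived cell line cannot be told apart. The question that the comparison addresses is which sites become more or less open when HMGB2 is overexpressed.

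Eph receptors form the largest family of receptor tyrosine kinases, and their ephrin ligands are held on the surface of neighbouring cells. EphB receptors bind mainly the transmembrane ephrin-B ligands, and the contact sends signals into both cells, which steers axons, neural crest cells and the borders between tissues by repulsion or adhesion. EPHB6 stands apart among the EphB receptors because its kinase domain lacks catalytic activity. Melanocytes, from which melanoma arises, derive from the neural crest.

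Library totals over the peaks ranged from 26910189 to 45645294 counts, and all values below are normalized counts, which are scaled to the same effective library size. Both peaks in the body of HMGB2 itself were higher in HMGB2OE cells. That at chr4:173331939-173332440 had 32.0, 21.5 and 32.8 normalized counts in EV and 55.3, 75.1 and 58.5 in HMGB2OE cells, a log2 fold change of 1.16 ± 0.27 (SE), and reads from the vector and from the gene itself cannot be told apart there. The HMGB2 promoter peak did not differ (log2 fold change −0.01, edgeR adjusted p = 0.959). Among 8 melanocyte lineage genes, the promoter peaks of PMEL, MITF, SOX10 and S100B ranked at percentiles 99.97, 97.1, 93.0 and 92.9 of all tested peaks in EV cells, MLANA and TYRP1 at percentiles 63.2 and 65.1, and TYR and DCT had no promoter peak. Markers of epithelial cells were also open in part, with KRT8 at percentile 96.8 and CDH1 at 91.1, whereas EPCAM and KRT5 lay at 71.6 and 56.4. The endothelial markers PECAM1 and VWF lay at percentiles 70.7 and 68.6, and CDH5 had no promoter peak.

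The 6 EPHB6 peaks that were called higher lie on chromosome 7 and are shown first, because they carry the values for which the family was chosen. A call needed an adjusted p below 0.05 in edgeR's quasi-likelihood test over all tested peaks and a fold change of at least 1.5. For each peak, 201 bases of the hg38 plus strand are given 5′ to 3′, centred on the AP-1 word where the peak has it and on the middle of the peak otherwise. Capitals mark the AP-1 word TGACTCA, or TGAGTCA where the word is on the minus strand. AP-1, the dimer of FOS and JUN proteins, binds this word, and a match is a description of the letters, not of binding.
EPHB6 chr7:142808788-142808988: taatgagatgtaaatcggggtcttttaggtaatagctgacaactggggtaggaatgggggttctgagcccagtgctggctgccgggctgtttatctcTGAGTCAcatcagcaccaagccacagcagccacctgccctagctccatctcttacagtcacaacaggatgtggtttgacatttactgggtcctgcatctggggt
EPHB6 chr7:142809342-142809542: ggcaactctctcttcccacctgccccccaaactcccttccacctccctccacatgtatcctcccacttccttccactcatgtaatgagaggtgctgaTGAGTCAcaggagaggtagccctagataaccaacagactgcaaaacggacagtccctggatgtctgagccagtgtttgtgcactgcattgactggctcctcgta
EPHB6 chr7:142813452-142813652: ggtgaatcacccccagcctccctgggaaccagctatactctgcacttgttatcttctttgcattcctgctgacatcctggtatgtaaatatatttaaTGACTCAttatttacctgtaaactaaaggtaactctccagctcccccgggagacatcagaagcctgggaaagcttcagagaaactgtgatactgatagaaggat
EPHB6 chr7:142828260-142828460: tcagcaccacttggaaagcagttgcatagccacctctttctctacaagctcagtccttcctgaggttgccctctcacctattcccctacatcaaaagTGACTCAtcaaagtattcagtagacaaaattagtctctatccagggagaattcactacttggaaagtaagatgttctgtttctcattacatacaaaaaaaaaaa
EPHB6 chr7:142839053-142839253: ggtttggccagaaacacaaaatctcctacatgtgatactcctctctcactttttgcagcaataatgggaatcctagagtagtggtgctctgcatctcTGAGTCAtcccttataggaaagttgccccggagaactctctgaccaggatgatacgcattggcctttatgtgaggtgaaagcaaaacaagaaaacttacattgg
EPHB6 chr7:142859888-142860088: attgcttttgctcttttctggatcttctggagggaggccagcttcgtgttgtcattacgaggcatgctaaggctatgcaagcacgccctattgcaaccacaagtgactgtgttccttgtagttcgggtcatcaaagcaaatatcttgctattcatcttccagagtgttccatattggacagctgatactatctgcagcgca

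The word stood 47 to 149 bases from the peak centre in the 5 peaks that held it, and the intron peak had none. An EPHB6 peak that held the word but did not differ between conditions is given for contrast, chosen as the uncalled EPHB6 peak with the word whose log2 fold change was nearest to 0.
EPHB6 chr7:142847446-142847646: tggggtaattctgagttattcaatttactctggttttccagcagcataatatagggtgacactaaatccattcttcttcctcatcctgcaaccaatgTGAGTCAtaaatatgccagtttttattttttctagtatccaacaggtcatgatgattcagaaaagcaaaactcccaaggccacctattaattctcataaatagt

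EPHB6, the receptor for which the family was chosen, was more open in HMGB2OE cells along the stretch before its start. In these cells 6 of its 12 peaks were called higher and none lower, and all 12 had a log2 fold change above 0, with a median of 0.63. The gene spans chr7:142855061-142871094 on the plus strand (ENSG00000106123.12), and 2 of its peaks lie in the body and 10 in the intergenic stretch before the start. Summed over the 12 peaks, the EV libraries had 1425, 1348 and 1565 normalized counts and the HMGB2OE libraries 1886, 1983 and 2267, or 1446 ± 109.7 against 2046 ± 198 (SD, n = 3). The lowest HMGB2OE library thus lay above the highest EV library. The background over all tested peaks was 1.87% called higher and 1.44% called lower, and nothing is read from this for EPHB6, whose calls were the reason for the choice. The same holds for the peaks whose libraries did not overlap between conditions, of which EPHB6 had 8 higher and none lower, beside 12.6% higher and 12.5% lower among all tested peaks.

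The EPHB6 peak with the largest difference, at chr7:142827961-142828462, ended 26.6 kb before the start of the gene. It had 68.1, 64.5 and 72.6 normalized counts in EV and 147.9, 133.5 and 171.1 in HMGB2OE cells, so that the lowest HMGB2OE library lay far above the highest EV library, and the fold change was 2.20 (log2 1.14 ± 0.17, SE). The peak at chr7:142838766-142839267, which ended 15.8 kb before the start, had 69.5, 62.0 and 64.4 counts in EV and 125.8, 125.1 and 129.5 in HMGB2OE cells, a fold change of 1.95. Here the libraries of a condition lay close together and the conditions well apart. The third peak of this kind, at chr7:142813163-142813664, had 102.8, 121.3 and 125.2 counts in EV and 204.9, 182.7 and 198.1 in HMGB2OE cells, a fold change of 1.67. These 3 peaks were called in all 16 other settings of scaling, test, filter and libraries. The settings reuse the counts for which the family was chosen, so this tally is a description and no support for the calls.

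The other 3 called peaks were called in fewer of these settings. The 2 farthest from the gene were neighbours, at chr7:142808541-142809042 and chr7:142809145-142809646. The first had 130.6, 119.6 and 143.9 counts in EV and 163.2, 185.2 and 257.8 in HMGB2OE cells, 1.53-fold. The second had 93.1, 74.0 and 77.2 in EV and 101.2, 113.4 and 167.7 in HMGB2OE cells, 1.56-fold. In both, HMGB2OE replicate 3 was well above the other HMGB2OE libraries, and the groups did not overlap. They were called in 12 and 10 of the 16 other settings. Without HMGB2OE replicate 3 neither was called, and EPHB6 kept 3 of its 6 calls; without EV replicate 2 the count was also 3. DESeq2's Wald test called 4 of the 12.

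The sixth called peak, at chr7:142859737-142860238, was the only one inside the gene. It lies in an intron, 4.93 kb past the start of the gene and 2048 bases from the nearest annotated transcript start. By the 3 kb rule it is therefore also a promoter peak, 1 of 3 at EPHB6. Its counts were low, at 44.5, 31.8 and 37.5 in EV and 59.5, 59.2 and 77.7 in HMGB2OE cells (1.74-fold). Of the called EPHB6 peaks it had the adjusted p nearest to the limit, and it was called in 10 of 16 other settings. The uncalled EPHB6 peak with the largest fold change was that at chr7:142832268-142832769. It had 30.6, 38.7 and 37.5 counts in EV and 46.8, 65.1 and 68.7 in HMGB2OE cells (1.67-fold). The libraries of the conditions did not overlap in this peak or in the intron peak.

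The remaining 5 EPHB6 peaks were not called. The promoter peak of highest count, at chr7:142853924-142854425, centred 887 bases before the gene start, was the most open site of the gene. It had 391.9, 393.2 and 516 counts in EV and 500.7, 526.3 and 568.5 in HMGB2OE cells. The conditions overlapped, since EV replicate 3 lay above HMGB2OE replicate 1, and the fold change was 1.23. No peak covered the start of the canonical EPHB6 transcript, whose nearest peak edge was 651 bases away. The peaks at chr7:142811136-142811637 and chr7:142833219-142833720 had fold changes of 1.26 and 1.34. The coding exon peak at chr7:142866285-142866786 had 165.4, 117.9 and 122.9 counts in EV and 152.2, 153.5 and 170 in HMGB2OE cells, a log2 fold change of 0.24. The peak shown for contrast, at chr7:142847279-142847780, had 70.9, 73.1 and 38.6 counts in EV and 59.5, 65.1 and 59.7 in HMGB2OE cells, which overlap throughout (log2 fold change 0.01).

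**Figure D1:**
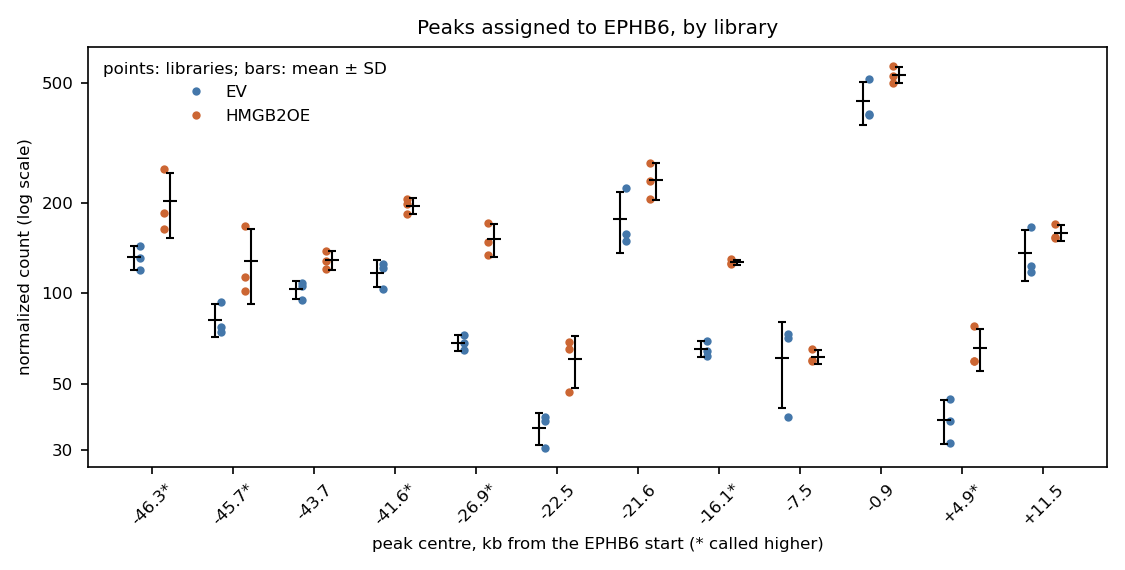
Normalized counts (log axis) of the 12 peaks assigned to EPHB6, ordered by the distance of the peak centre from the gene start in kb. Points are libraries, bars are the mean ± SD of 3 libraries, and asterisks mark the 6 called peaks, in which every HMGB2OE library lies above every EV library.

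The called sites lay mainly outside the gene. Of the 9 EPHB6 peaks more than 3 kb before the start, all 9 had a log2 fold change above 0 and 5 were called, with a median of 0.64. This stretch begins after TRBC2 (chr7:142801041-142802748), a constant segment of the T cell receptor beta locus, whose end is 5.79 kb from the first peak. TRBV30, a variable segment of that locus, lies at chr7:142812586-142813399 and reaches into the EPHB6 peak at chr7:142813163-142813664. A long non-coding RNA gene, ENSG00000289938, spans chr7:142813393-142853827, and 6 of the EPHB6 peaks are centred in it, of which 3 were called. The stretch therefore belongs to EPHB6 by nearest protein-coding start site, and no value here shows which gene a site acts on. Of the T cell and B cell markers given here, none had a promoter among the most open sites. PTPRC ranked at percentile 61.7 of EV counts and CD3E at 74.6, with log2 fold changes of 0.02 and −0.06, and MS4A1 had no promoter peak.

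Most peaks of other genes around EPHB6 also had somewhat higher counts in HMGB2OE cells. Within 250 kb of its start, 23 of the 26 tested peaks of other genes had a log2 fold change above 0, with a median of 0.18 and a range of −0.48 to 0.95. None of the 26 was called by edgeR or by DESeq2, and 4 were higher and none lower at an unadjusted p below 0.05 in edgeR. Within 1 Mb the median over 124 peaks was 0.06, and 3 were called higher, 1 at FAM131B and 2 at OR10AC1, and none lower; DESeq2 called 2 of the 124 higher and none lower. At an unadjusted p below 0.05 in edgeR, 11 of the 124 were higher (8.87%) and 2 lower (1.61%), beside 10.7% and 10.2% of all tested peaks. EPHA1, an Eph receptor gene of the other class in the same stretch, had 9 peaks with a median of 0.20 and no call. Centring the log2 ratios on the median of 10 Mb windows left 6 EPHB6 peaks called. Such windows are far wider than the 250 kb stretch and cannot remove a shift confined to it, so nothing is read from that count. The part of the regional shift in the EPHB6 values was not tested.

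**Figure D2:**
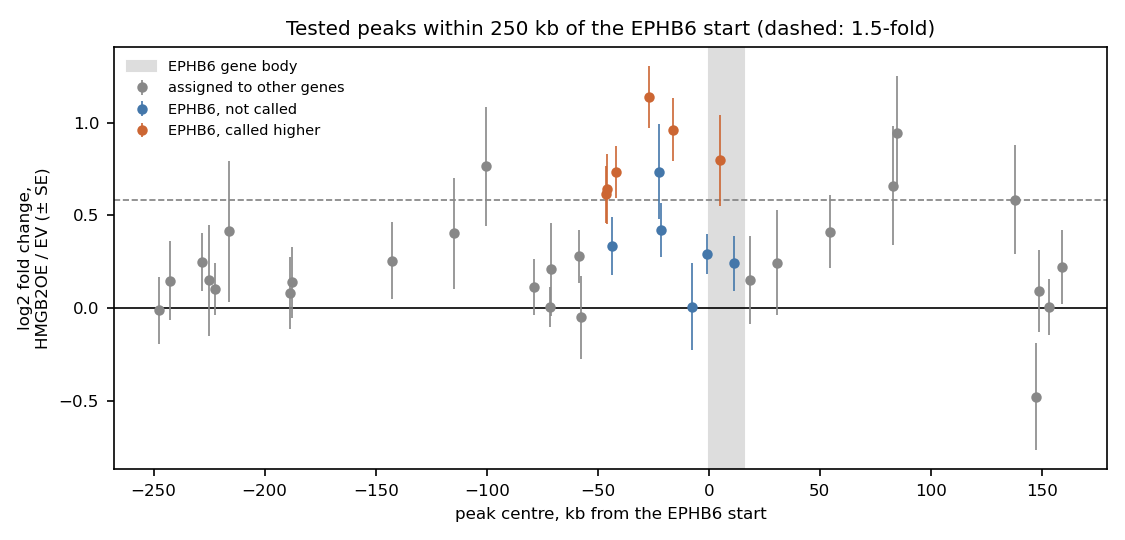
Log2 fold change (HMGB2OE over EV, ± SE) of each tested peak within 250 kb of the EPHB6 start, by distance from the start in kb. Orange points are the 6 called EPHB6 peaks, blue points the other 6 EPHB6 peaks, grey points the 26 peaks of other genes, the grey band is the gene body and the dashed line 1.5-fold; the called EPHB6 peaks stand above most of the grey points, 23 of which are above 0.

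The AP-1 word was frequent at EPHB6. It stood in 8 of the 12 peaks (66.7%), in 35 of the 109 peaks of the other 7 genes (32.1%), and in 28.0% of all tested peaks of the same length (30.8% of those more than 3 kb from a start site). Of the 8 EPHB6 peaks with the word, 5 were called and the median log2 fold change was 0.69. Of the 4 without it, 1 was called and the median was 0.31. All 8 peaks with the word are among the 9 that lie more than 3 kb before the start, so word and position cannot be told apart. Since EPHB6 was chosen for its calls, this split is a description and was not tested. Among all peaks called higher the share with the word was 35.9%. The EPHB6 peaks were also less rich in G and C, with a median of 42.0%, and with a correction for GC content 4 of the 12 were called. The other words were counted in the same way. The CRE word TGACGTCA was in none of the 121 member peaks and in 0.758% of all tested peaks, the TEAD word GGAATG in 28.9% and 29.0%, the SOX word ACAAAG in 42.1% and 37.3%, and the E-box CACGTG in 6.61% and 6.85%. In the 12 EPHB6 peaks the TEAD word stood in 5 (41.7%), the SOX word in 3 and the E-box in 2 (16.7%). All words were searched on both strands.

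Genes with such a share of higher peaks were few. EPHB6 was chosen for its calls, so its place among them is a description and not a test. Over the 4964 genes with at least 10 tested peaks, the gene whose share was most like that of EPHB6 was ADAMTS2, which encodes a procollagen protease, also with 6 of 12 peaks called higher. CXCL12 and LNPK followed with 4 of 10 each, GATB with 6 of 16 and S1PR3 with 5 of 14. EPHB3 ranked 863rd and EFNB2 1261st of these genes.

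The other 7 genes came with the family and not for their own values, although earlier results of these data were known when the members were chosen. Of their 109 peaks, 2 were called higher (1.83%) and none lower by edgeR, close to the 1.87% and 1.44% of all tested peaks. Their median log2 fold change was 0.06, beside −0.005 over all tested peaks. DESeq2 also called 2 higher and none lower. At an unadjusted p below 0.05, 15 were higher and 9 lower in edgeR, that is 13.8% and 8.26%, beside 10.7% and 10.2% of all tested peaks. Libraries of the conditions did not overlap in 17 peaks that were higher (15.6%) and 8 that were lower (7.34%), beside 12.6% and 12.5% of all tested peaks. With no limit on the fold change, 4 of the 109 peaks were higher (3.67%) and 2 lower (1.83%), beside 3.44% and 3.03% of all tested peaks. The 2 calls were 1 of 58 receptor peaks, at EPHB3, and 1 of 51 ligand peaks, at EFNB2.

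**Figure D3:**
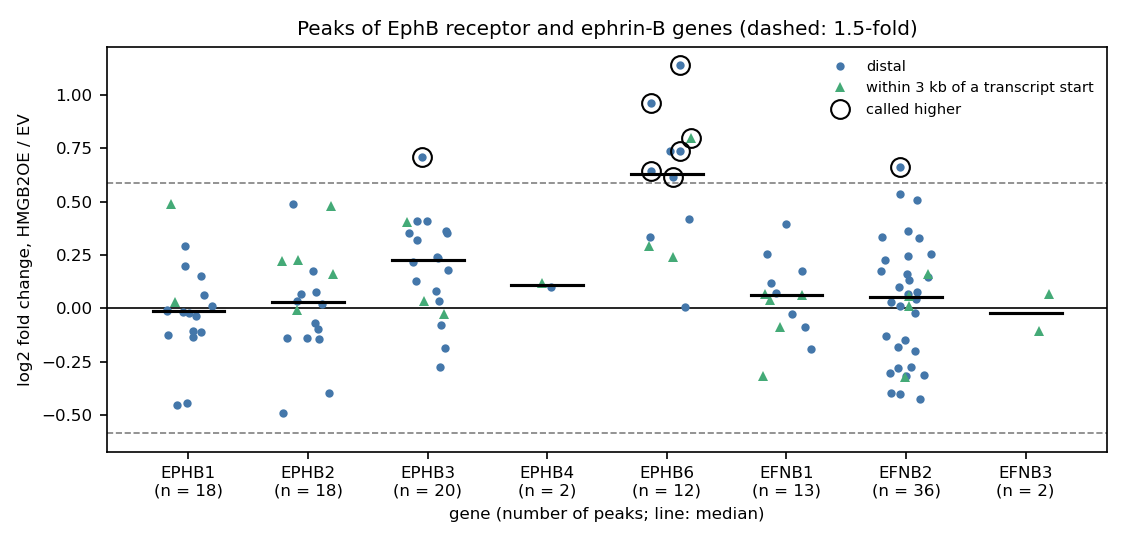
Log2 fold change (HMGB2OE over EV) of all 121 member peaks by gene. Circles are distal peaks, triangles peaks within 3 kb of a transcript start of the gene, rings mark the 8 called peaks, black lines are medians and dashed lines 1.5-fold; EPHB6 is the gene whose median, 0.63, lies above 1.5-fold.

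EPHB3, a receptor known for sorting cells along the intestinal crypt, spans chr3:184561785-184582408 on the plus strand (ENSG00000182580.3) and had 20 peaks. The called peak, at chr3:184593558-184594059, was intergenic, 32.0 kb past the gene start and beyond its 3′ end. It had 68.1, 86.9 and 78.4 normalized counts in EV and 136, 112.6 and 137.3 in HMGB2OE cells. Every HMGB2OE library lay above every EV library, and the fold change was 1.63 (log2 0.71 ± 0.17, SE, edgeR adjusted p = 0.0101). The call was lost without HMGB2OE replicate 1 (adjusted p = 0.0602) and held in the other 15 settings.

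Other EPHB3 peaks leaned the same way without passing the test. With the called peak counted, 6 were higher (30%) and none lower at an unadjusted p below 0.05 in edgeR. Among all tested peaks these shares were 10.7% and 10.2%. Of the 20, 16 had a log2 fold change above 0, with a median of 0.23, and their sum was 5131, 5886 and 5885 in EV against 6374, 6098 and 6057 in HMGB2OE cells. The 8 peaks beyond the 3′ end, a group made after the values were seen, all had a log2 fold change above 0 (median 0.36), and the 12 peaks before the gene and in its body had a median of 0.06. The peak next to the called one, at chr3:184592835-184593336, had 94.5, 104.1 and 110 counts in EV and 130.1, 134.3 and 134 in HMGB2OE cells. Its libraries did not overlap either, but it did not pass (log2 fold change 0.36, edgeR adjusted p = 0.161). The smallest log2 fold change of the gene was −0.28, at chr3:184492300-184492801. The promoter peak of highest count, at chr3:184561355-184561856, had 1547, 1615 and 1691 counts in EV and 1636, 1616 and 1515 in HMGB2OE cells, which overlapped (log2 fold change −0.03, edgeR adjusted p = 0.892).

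EPHB1, which guides the axons of retinal ganglion cells that stay on their own side at the optic chiasm, spans chr3:134795260-135260467 on the plus strand (ENSG00000154928.19) and had 18 peaks, 13 of them in the body. None was called by edgeR or DESeq2. At an unadjusted p below 0.05 in edgeR 1 was higher (5.56%) and none lower, beside 10.7% and 10.2% of all tested peaks. The median of its log2 fold changes was −0.01. The most open of its peaks was not the promoter but an intron site at chr3:134846917-134847418, with 1447, 1710 and 1783 counts in EV and 1649, 1438 and 1425 in HMGB2OE cells (log2 fold change −0.13, adjusted p = 0.391). The site nearest to a call was another intron peak, at chr3:135197199-135197700, with 461.4, 509.4 and 449.3 counts in EV and 595.9, 616.4 and 524.6 in HMGB2OE cells. The HMGB2OE libraries all lay above the EV libraries, by 1.22-fold (adjusted p = 0.0717). The extremes were weak sites at chr3:135067388-135067889 (log2 fold change 0.49 ± 0.31) and chr3:135323024-135323525 (−0.45 ± 0.33). Both were under 70 counts in every library, and their conditions overlapped.

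EPHB2, a receptor with roles in axon guidance and synapse formation, spans chr1:22710839-22921500 on the plus strand (ENSG00000133216.17) and had 18 peaks, 15 of them in the body. None was called by edgeR or DESeq2. At an unadjusted p below 0.05 in edgeR 2 stood higher (11.1%) and 1 stood lower (5.56%), beside 10.7% and 10.2% of all tested peaks. The median of its log2 fold changes was 0.03. Its most open site was an intron peak at chr1:22832013-22832514, 121.4 kb past the start, with 811.6, 990.3 and 971.2 counts in EV and 925.7, 963.4 and 1045 in HMGB2OE cells. The conditions overlapped there (log2 fold change 0.08, adjusted p = 0.676). The intron peak with the largest rise in value, at chr1:22876753-22877254, had 54.2, 62.0 and 81.9 counts in EV and 85.0, 86.7 and 108.1 in HMGB2OE cells (log2 fold change 0.49, adjusted p = 0.145). That with the lowest value, at chr1:22746000-22746501, had 109.8, 97.2 and 114.7 in EV and 80.8, 53.4 and 96.8 in HMGB2OE cells (log2 fold change −0.49, adjusted p = 0.137). In each of these the libraries of the conditions did not overlap, in opposite directions within the same gene. Over the 18 EPHB2 peaks the libraries did not overlap in 3 that were higher and 1 that was lower. Among all tested peaks such shares were 12.6% and 12.5%.

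EPHB4, the receptor of venous endothelium, spans chr7:100802565-100827523 on the minus strand (ENSG00000196411.10), on the same chromosome as EPHB6. It had only 2 peaks, both in introns and both uncalled by edgeR and DESeq2, with none at an unadjusted p below 0.05 in either tool. The site near the start, at chr7:100825984-100826485, had 170.9, 167.8 and 181.4 counts in EV and 188.7, 201 and 173.4 in HMGB2OE cells (log2 fold change 0.12 ± 0.13). The site near the 3′ end, at chr7:100803496-100803997, had 194.6, 238.3 and 217.7 in EV and 217.6, 259.4 and 224 in HMGB2OE cells (log2 fold change 0.10 ± 0.13). The conditions overlapped in both.

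Among the ligands, EFNB2, which marks arterial endothelium and binds EPHB4, held most of the sites. It spans chr13:106489745-106535662 on the minus strand (ENSG00000125266.8), and 28 of its 36 peaks lay beyond its 3′ end, up to 506.5 kb from the start. The called peak, at chr13:106467033-106467534, 68.4 kb past the start, had 102.8, 110.1 and 101.8 counts in EV and 157.3, 173.5 and 170 in HMGB2OE cells. The conditions were well apart, the fold change was 1.58 (log2 0.66 ± 0.15, SE, edgeR adjusted p = 0.00492), and the call held in all 16 other settings.

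A further 4 EFNB2 peaks had an adjusted p below 0.05 with a fold change under 1.5, and they moved in both directions. Each lost that p when certain single libraries were left out. The peak at chr13:106491910-106492411, in an untranslated part of an exon near the 3′ end, rose from 183.5, 204.8 and 203.6 counts in EV to 306, 300.3 and 253.3 in HMGB2OE cells (1.45-fold, adjusted p = 0.00646), and its adjusted p reached 0.0524 without HMGB2OE replicate 1. The distal peak at chr13:106104178-106104679 rose from 375.2, 377.7 and 449.3 to 521.9, 483.8 and 511.1 (1.26-fold, adjusted p = 0.0432). Their libraries did not overlap, and both were higher in HMGB2OE cells. The distal peak at chr13:106354857-106355358 fell from 432.2, 515.4 and 410.7 to 358.7, 369.5 and 284.8 (log2 fold change −0.42, adjusted p = 0.0229). The peak at chr13:106318894-106319395 fell from 519.8, 597.1 and 555.8 to 472.6, 429.6 and 443.6 (log2 fold change −0.32, adjusted p = 0.0441). With 1 library left out, the adjusted p of the peak at chr13:106104178-106104679 stayed below 0.05 only without EV replicate 3 and reached 0.170. That of the peak at chr13:106318894-106319395 did so only without EV replicate 1 and reached 0.198. The peak at chr13:106354857-106355358 lost it without EV replicate 2 (0.173), HMGB2OE replicate 3 (0.121) or HMGB2OE replicate 1 (0.0552). These falls were the only members lower by the adjusted p alone, and they lie beyond the 3′ end of the gene, as does the distal peak that rose. At an unadjusted p below 0.05 in edgeR, 6 of the 36 peaks were higher (16.7%) and 7 lower (19.4%), beside 10.7% and 10.2% of all tested peaks. The sum over the 36 peaks was 12516, 14360 and 13684 in EV against 13537, 13664 and 13453 in HMGB2OE cells, which overlapped.

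EFNB1, the X-linked ligand whose loss causes craniofrontonasal syndrome, spans chrX:68829021-68842160 on the plus strand (ENSG00000090776.6) and had 13 peaks. None was called by edgeR or DESeq2. At an unadjusted p below 0.05 none was higher and 1 lower in each tool (7.69%, beside 10.2% of all tested peaks in edgeR). That peak, at chrX:68827785-68828286, 986 bases before the start, had 252.9, 265 and 266.8 counts in EV and 211.7, 223.5 and 193.6 in HMGB2OE cells. The libraries did not overlap, but the difference did not pass the test over all peaks (log2 fold change −0.32, edgeR adjusted p = 0.107). The highest value of the gene was a log2 fold change of 0.40 ± 0.30 at chrX:68989909-68990410, where the conditions overlapped.

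EFNB3, a ligand of the ventral midline of the spinal cord that keeps axons from crossing back, spans chr17:7705202-7711372 on the plus strand (ENSG00000108947.5). It had 2 peaks, both before its start and neither called by edgeR or DESeq2, with none at an unadjusted p below 0.05 in either tool. That at chr17:7703513-7704014 had 105.6, 103.2 and 86.6 counts in EV and 97.8, 89.3 and 86.7 in HMGB2OE cells (log2 fold change −0.11 ± 0.17). That over the start, at chr17:7704818-7705319, had 216.8, 219.4 and 195.4 counts in EV and 204, 243.6 and 215 in HMGB2OE cells (log2 fold change 0.07 ± 0.12).

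The promoter peaks of highest count of the 8 genes differed widely in how open they were, and hardly between conditions. The order by the promoter peak of highest count in EV cells was EFNB2 (2049 ± 117.6 normalized counts, SD, n = 3), EPHB3 (1618 ± 72.1), EPHB1 (1446 ± 116.6), EFNB1 (622.8 ± 17.8), EPHB6 (433.7 ± 71.3), EPHB2 (268.1 ± 24.4), EFNB3 (210.5 ± 13.2) and EPHB4 (173.4 ± 7.12). All these peaks are of the same length, and they ranked from percentile 99.2 of all tested peaks for EFNB2 to 65.7 for EPHB4. EPHB3 and EPHB1 were not clearly separated, since the lowest EPHB3 library in EV cells had 1547 and the highest EPHB1 library 1542, and no neighbours in the order overlapped in EV cells. In HMGB2OE cells the order of the 8 genes by their means was the same, but the libraries of EPHB3 and EPHB1 overlapped, as did those of EFNB1 and EPHB6. A peak covered the canonical start of EPHB1, EPHB3, EFNB1, EFNB2 and EFNB3, whereas the nearest edge was 38 bases away for EPHB2, 1038 for EPHB4 and 651 for EPHB6.

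Of the 7 promoter peaks of highest count other than that of EPHB6, none was called by edgeR or DESeq2. None had an unadjusted p below 0.05 in either tool. In HMGB2OE cells EFNB2 had 2132 ± 79.8, EPHB3 1589 ± 64.9, EPHB1 1480 ± 79.3 and EFNB1 587.7 ± 20.3. The log2 fold changes of the 7 lay between −0.09 for EFNB1 and 0.23 for EPHB2, with edgeR adjusted p-values from 0.254 to 0.892. Only the EPHB2 site had libraries that did not overlap, at 240.4, 286.5 and 277.3 in EV and 307.7, 306.1 and 332.1 in HMGB2OE cells. Over all 22 promoter peaks of the 7 genes none was called by edgeR or DESeq2. At an unadjusted p below 0.05 in edgeR, 2 of these were higher (9.09%) and 1 lower (4.55%), beside 10.7% and 10.2% of all tested peaks. With EPHB6 included there were 25 promoter peaks, of which 1 was called higher, the EPHB6 intron peak at chr7:142859737-142860238. Of the 87 distal peaks of the 7 genes 2 were called higher, beside 1.87% of all tested peaks. These counts are too small to set promoter and distal sites apart.

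**Figure D4:**
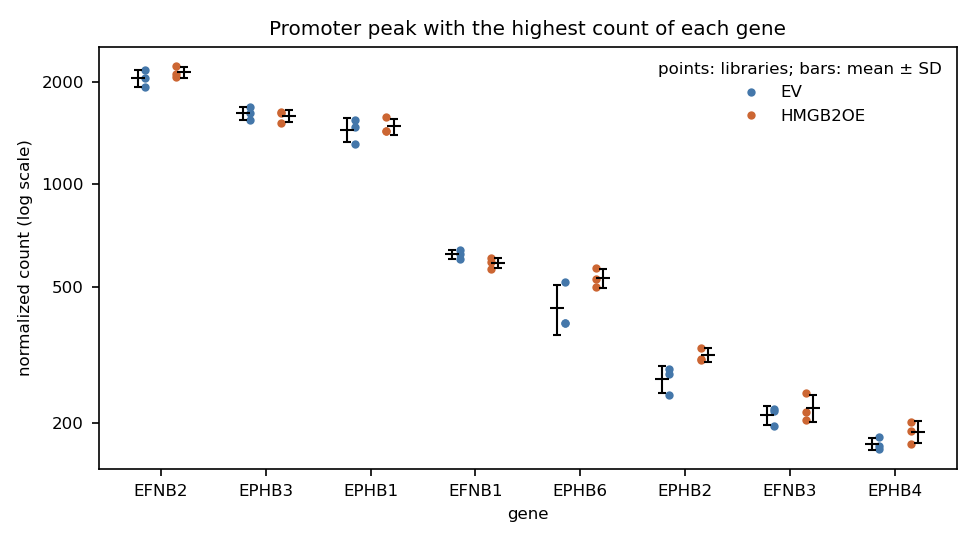
Normalized counts (log axis) of the most counted promoter peak of each gene, in order of its level. Points are libraries and bars the mean ± SD of 3 libraries per condition; the genes span from about 173.4 for EPHB4 to 2049 for EFNB2 in EV cells, and the conditions lie close together within each gene.

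The rest of the pathway had calls in both directions. The 14 genes of EphA receptors and ephrin-A ligands, the class that is bound by a lipid anchor, had 379 tested peaks, of which 4 (1.06%) were called higher and 8 (2.11%) lower, with a median log2 fold change of −0.03. The higher peaks were at EFNA5 (2), EPHA3 (1) and EPHA5 (1), and the lower ones at EFNA5 (2), EPHA6 (2), EPHA7 (2), EPHA3 (1) and EPHA4 (1). EFNA5 and EPHA3 thus had calls in both directions. Of 523 peaks at 35 genes for signalling partners, such as adaptors, exchange factors and kinases that act under EphB receptors or ephrin-B ligands, 11 (2.10%) were higher and 9 (1.72%) lower (median log2 fold change 0.0005). The higher ones were 3 at GRIP1, a PDZ scaffold that binds ephrin-B, 3 at RGS3, a regulator of G protein signalling that binds the ephrin-B tail, 2 each at the exchange factors KALRN and TIAM1, and 1 at the adaptor NCK2. Of the lower ones 3 were at the kinase gene ABL2 and 1 each at ITSN1, KALRN, RASA1, STAT3, TIAM1 and VAV3. KALRN and TIAM1 thus had calls in both directions. The shares of the partner genes stood close to the 1.87% and 1.44% of all tested peaks.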

How the data were processed

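ATAC-seq was done on A375 cells, with 3 EV and 3 HMGB2OE libraries. Per the study's methods and the submitters' processing notes, Trim Galore 0.6.7 and cutadapt 4.0 were used for trimming, Bowtie 2 for alignment to hg38, Picard for duplicates and MACS2 for peaks, with public melanocyte data as control. Blacklisted regions were left out and close peaks were joined. The authors deposited raw counts per peak and library from featureCounts, neither normalized nor pooled. A shift for Tn5 and the treatment of reads with several alignments are not given in the sources used here. Each peak is 502 bp wide except 15, and coordinates are those of the file, on hg38. The lowest start in the file is 0, so starts may be counted from 0, in which case each peak would begin 1 base later than printed and be 1 base shorter.

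Counts were tested with edgeR 4.0.16 in R 4.3.3 (filterByExpr, TMM factors of 0.975 to 1.02, quasi-likelihood F test, no covariate, Benjamini–Hochberg adjustment over 150117 tested peaks), with DESeq2 1.42.0 as an alternative. DESeq2 is the tool of the study's methods. Calls needed an adjusted p under 0.05 and at least 1.5-fold. The SE of a log2 fold change was taken as its size over the root of the F statistic. A normalized count is the raw count over the effective library size, times the mean of these sizes. Depth limits weak sites, and totals differed by library. The script was tested on simulated data. Libraries of a condition differed by more than counting noise. Peaks were annotated with GENCODE release 44, and promoter peaks have their centre within 3 kb of a transcript start.

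The members, gene lists, words and alternatives were chosen with earlier results of these data known. Peaks named by rule are the promoter peak of highest mean count, all called peaks, and the largest and smallest log2 fold change of each gene. For EPHB6 all 12 peaks are given. Any other peak was named with its values already known. Alternatives were other scalings, no filter, a minimum of 10 counts per library, the DESeq2 test, a replicate block, offsets for GC content, these combined, centring in windows of 10 Mb, omission of each library, a looser or no fold limit, and assignment of each peak to the nearest start site. The value of 1 marker gene is not reported here.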

Additional observations from a re-analysis of the deposited data

How the results depend on the processing

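The count of member peaks called higher was 8 with all 6 libraries and 5 to 8 when 1 library was left out, with 5 without EV replicate 2. It was 6 by DESeq2's Wald test and with GC content offsets, and 8 under the other scalings, filters and centring. The count of EPHB6 peaks ranged from 3 to 6 with 1 library left out. The 3 EPHB6 peaks called in every setting, the EFNB2 peak and, except without HMGB2OE replicate 1, the EPHB3 peak kept their calls. All settings draw on the same libraries, and for EPHB6, chosen for its calls, these counts are a description only. Member peaks called lower were none in the main setting, 1 with a looser fold limit and 2 with no fold limit. Those called higher were 10 with the looser limit and 10 with no limit.

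Over all tested peaks, 2800 were higher and 2166 lower. With the looser limit these were 5045 and 4283, and with none 5164 and 4546. With 1 library left out, 1821 to 2978 were higher, lowest without HMGB2OE replicate 1, and 1552 to 2237 lower. Of the called peaks 56.4% were higher, 62.6% when scaled by total counts only and 49.9% with the trend on mean count removed, with 8 member peaks higher and none lower in each.

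Signs changed only where the log2 fold change did not pass the test. The EPHB3 promoter peak was at 0.0345 with the trend removed, at 0.0043 with GC content offsets and at 0.0040 with the replicate block and GC content offsets, and from −0.0531 to 0.0085 with 1 library left out. The uncalled EPHB6 peak at 142847279 was at −0.0327 with the trend removed and −0.0167 with centring, and from −0.23 to 0.19 with 1 library left out. The ranges with 1 library left out also crossed 0 for the EFNB1 peak at 68989909 (−0.0307 to 0.63), the EFNB3 promoter peak (−0.01 to 0.13), the EPHB1 promoter peak (−0.0281 to 0.0776) and the EPHB3 peak at 184492300 (−0.46 to 0.0833). The cause was not tested.

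The replicate number as a block gave 8 member peaks higher and none lower, 6 of them at EPHB6, and 3192 higher and 2383 lower over all tested peaks. The labels do not say whether libraries with the same number were paired. Their deviations correlated at −0.09, 0.19 and 0.13, and those of libraries with different numbers at −0.27 to 0.15, which does not settle it. The 12 member peaks with a mean under 50 counts in EV cells had standard errors of 0.243 or more, so a 1.5-fold difference at such sites could be missed.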
